A study of Rattus norvegicus with 42 samples.

Results

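The Ndrg family of the rat comprises 4 genes, Ndrg1, Ndrg2, Ndrg3 and Ndrg4, named after the first member, which is repressed by the N-myc transcription factor. Every transcript that carried one of these 4 symbols was taken as a member, which gave 12 of the 15516 transcripts in the count table and 4 of its 14304 genes. Ndrg4 was represented by 6 transcripts, Ndrg2 by 4, and Ndrg1 and Ndrg3 by 1 each, and all 12 were abundant enough to enter the tests beside 13062 transcripts in all. The family was selected on the fold change of Ndrg4, which was lower after phenobarbital (PB) than after vehicle (VEH) in these animals, so the PB and VEH values of the members are a description and carry no test. Transcripts of a gene overlapped in position and reads were divided among them, and they are therefore not replicates of each other.

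RNA sequencing was performed on whole hippocampi of male Sprague Dawley rat pups that received 1 intraperitoneal injection on postnatal day 7 and were killed 72 h later. The groups were saline vehicle (VEH, 13 animals), PB at 75 mg/kg (14 animals) and the second antiseizure drug, levetiracetam (LEV), at 200 mg/kg (14 animals), and 1 further VEH animal labelled as excluded was left out. Sample codes took 2 forms, here called code series 1 (animals 1 to 6) and code series 2 (animals 7 to 14), and the form was a term in every model. In total, 9499494 to 14488125 estimated reads were assigned per animal. Excitatory neuron transporter Slc17a7 (887 to 1381 CPM, counts scaled to a common library total) and astrocyte water channel Aqp4 (537 to 1181 CPM) were present in every hippocampus, whereas Ttr, which defines choroid plexus, ranged from 0.81 to 7107 CPM. As the tissue was sequenced whole, fewer cells of a type and less RNA per cell cannot be told apart in any value below.

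NDRG proteins share an alpha/beta hydrolase fold that lacks the catalytic residues of an active enzyme. In the brain, Ndrg4 is mainly a neuronal gene, linked in mice to spatial learning and the response to ischaemia, and is also expressed in the heart. Ndrg2 is known as an astrocyte gene, Ndrg1 is expressed in oligodendrocytes and Schwann cells, where its loss in humans causes a demyelinating neuropathy, and is induced by hypoxia, and Ndrg3 has been described as a lactate-responsive protein of the hypoxia pathway. The kinase SGK1 phosphorylates NDRG1 and NDRG2.

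In the rn6 build, the 6 Ndrg4 transcripts shared 1 end on chromosome 19 (position 9766439) and lay on the minus strand, so that the other end marked where transcription began. Transcripts that began at the same site had the same start and end positions, so a difference between them is not one of start site. A pair began at each of 3 start sites, an outer site at 9801943 (NM_001271091 and NM_001271092), a middle site at 9789264 (NM_001271093 and NM_001271094) and an inner site at 9777466 (NM_001271095 and NM_031967). The 4 Ndrg2 transcripts (chromosome 15, from 28305820) likewise formed pairs, at 28314460 (NM_001270862 and NM_133583) and 28313842 (NM_001270863 and NM_001270864). Ndrg3 (NM_001013923) occupied chr3:152972055-153099090 and Ndrg1 (NM_001011991) chr7:107734326-107775702.

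The start-site promoters of Ndrg4 and Ndrg2 are shown because the transcripts of these genes differ in their starts and the starts differed in their levels. Each sequence is from RefSeq on the GRCr8 build and runs 5′ to 3′ on the gene's strand from 250 bases before to 50 bases after the annotated start, and entries were matched to the rn6 sites by their spacing, which was 24476 bases in GRCr8 and 24477 in rn6 between the outer and inner sites of Ndrg4, and 618 in both builds for Ndrg2. Capitals mark exact matches on either strand to TATAAA, the core of the element that binds the TATA-binding protein, to CCAAT, the core of the element that binds NF-Y, or to GGGCGG, which binds Sp1 proteins.
Ndrg4 outer site (chr19:9392923-9393222, minus strand): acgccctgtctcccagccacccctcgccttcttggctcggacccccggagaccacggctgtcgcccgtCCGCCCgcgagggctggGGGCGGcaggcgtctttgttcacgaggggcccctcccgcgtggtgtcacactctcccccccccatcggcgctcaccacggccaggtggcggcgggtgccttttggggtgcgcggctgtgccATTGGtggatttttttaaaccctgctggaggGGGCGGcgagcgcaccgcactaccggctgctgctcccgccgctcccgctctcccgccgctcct
Ndrg4 middle site (chr19:9380245-9380544, minus strand): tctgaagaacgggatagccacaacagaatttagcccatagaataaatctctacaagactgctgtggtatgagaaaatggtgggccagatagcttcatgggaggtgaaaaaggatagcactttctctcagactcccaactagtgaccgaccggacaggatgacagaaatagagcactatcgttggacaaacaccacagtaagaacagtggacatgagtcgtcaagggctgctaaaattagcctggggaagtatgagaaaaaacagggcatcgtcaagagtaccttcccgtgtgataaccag
Ndrg4 inner site (chr19:9368447-9368746, minus strand): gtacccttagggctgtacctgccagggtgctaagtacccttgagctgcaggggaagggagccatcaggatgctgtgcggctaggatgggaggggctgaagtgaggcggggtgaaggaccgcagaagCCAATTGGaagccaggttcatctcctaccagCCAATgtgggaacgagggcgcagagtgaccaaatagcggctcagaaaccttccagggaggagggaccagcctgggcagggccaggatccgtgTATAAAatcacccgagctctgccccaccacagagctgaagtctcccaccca
Ndrg2 site at 28314460 (chr15:27083071-27083370, minus strand): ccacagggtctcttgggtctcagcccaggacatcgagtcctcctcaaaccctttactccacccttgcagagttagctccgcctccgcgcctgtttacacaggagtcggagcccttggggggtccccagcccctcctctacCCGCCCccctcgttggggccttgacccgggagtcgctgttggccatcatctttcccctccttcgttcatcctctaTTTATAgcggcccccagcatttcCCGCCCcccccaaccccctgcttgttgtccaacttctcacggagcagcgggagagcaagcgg
Ndrg2 site at 28313842 (chr15:27082453-27082752, minus strand): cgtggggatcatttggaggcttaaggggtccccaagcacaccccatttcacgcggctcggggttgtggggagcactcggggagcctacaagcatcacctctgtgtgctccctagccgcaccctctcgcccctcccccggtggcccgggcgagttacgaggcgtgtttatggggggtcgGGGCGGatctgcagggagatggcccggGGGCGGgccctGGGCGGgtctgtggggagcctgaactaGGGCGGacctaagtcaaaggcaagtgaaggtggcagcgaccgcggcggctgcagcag

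The 3 Ndrg4 promoters differed in composition. The outer one contained 72.0% G and C with 32 CG dinucleotides, the middle one 46.0% with 7 and the inner one 60.0% with 8, beside a median of 7 CG dinucleotides over 33465 rat promoter windows of the same length. TATAAA occurred at the inner Ndrg4 site, where its first base lay 1 base before the annotated start, and on the opposite strand of the Ndrg2 site at 28314460. The inner Ndrg4 window also held CCAAT on its own strand at 124 and 93 bases before the start, the first of them overlapping a match on the opposite strand, and the middle window held none of these motifs. Among all windows, TATAAA was found in 14.2%, CCAAT in 37.5% and GGGCGG in 33.1%, and CACGTG, the E box bound by MYC proteins, was found in 6.42% of all windows and in none of the Ndrg2, Ndrg3 or Ndrg4 windows.

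Ndrg4 was lower after PB in both code series. The summed level of its 6 transcripts ranged from 2011 to 2260 CPM in VEH animals with a median of 2119, from 1395 to 2052 CPM in PB animals with a median of 1852, and from 1843 to 2331 CPM in LEV animals with a median of 2175. Thus 13 of 14 PB animals lay below the lowest VEH animal, 7 of 14 lay below the lowest LEV animal, and 14 of 14 lay below the VEH mean of their own code series, while VEH and LEV animals overlapped. The spread was also wider after PB, with a standard deviation (SD) of 203 CPM (n = 14) against 83.5 CPM (n = 13) among VEH and 143 CPM (n = 14) among LEV animals, and PB animals 2 (1395 CPM) and 7 (1418 CPM) were the lowest. The fitted log2 fold change of the Ndrg4 sum between PB and VEH was -0.25 (standard error, SE, 0.04).

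**Figure D1:**
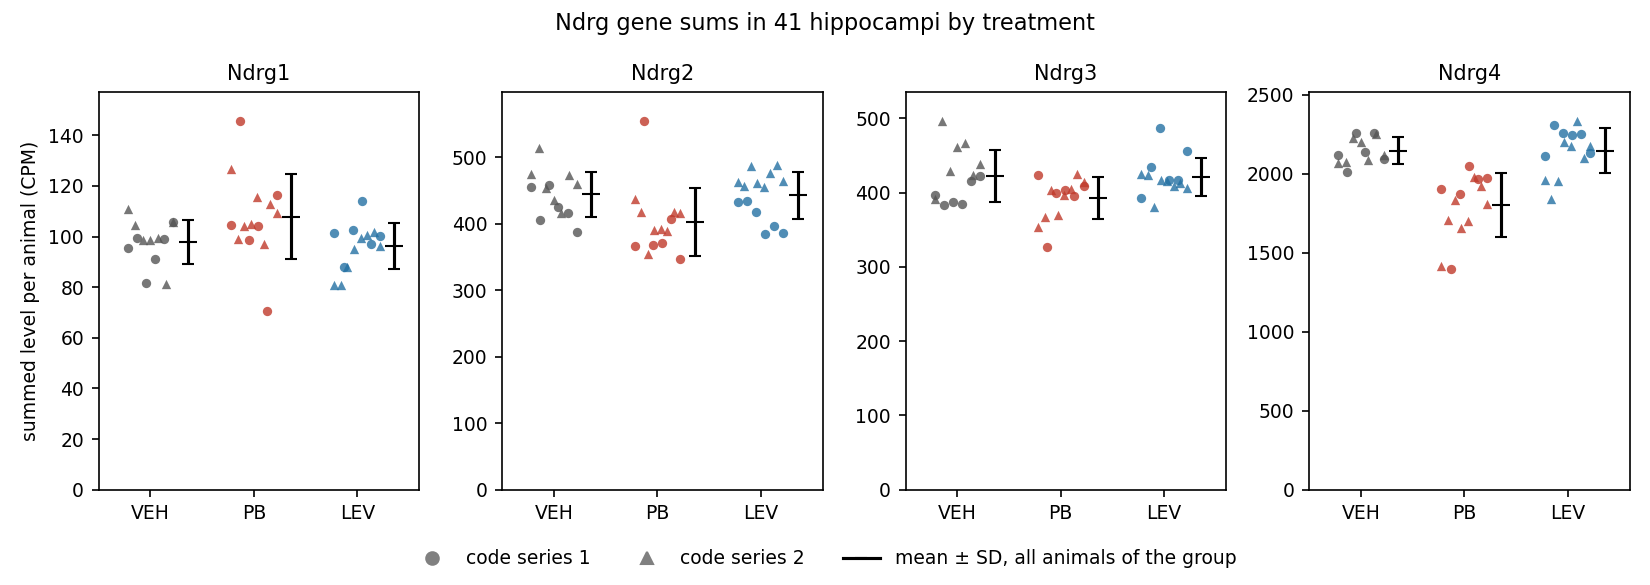
Summed level of each Ndrg gene (CPM, axes from 0) in each of 41 hippocampi by treatment. Points are animals, circles code series 1 and triangles code series 2, and bars give the mean ± SD of the group. For Ndrg4, 13 of 14 PB animals sit below all VEH animals, and PB animal 2 stands highest for Ndrg1 and Ndrg2 and lowest for Ndrg3 and Ndrg4.

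Most Ndrg4 reads were assigned to the inner start site, which took 85.1 ± 1.54% (SD, n = 13) of the gene's sum in VEH. The corresponding share was 83.9 ± 1.49% (n = 14) after PB and 85.9 ± 1.38% (n = 14) after LEV. The outer site took 11.8 ± 1.41%, 12.7 ± 1.13% and 11.1 ± 0.822%, respectively, and the middle site 3.06 ± 0.818%, 3.47 ± 1.17% and 3.04 ± 0.933%. At the inner site the summed level was 1699 to 1944 CPM in VEH (median 1829), 1185 to 1753 CPM in PB (median 1557) and 1624 to 2019 CPM in LEV (median 1843), and 13 of 14 PB animals were again below every VEH animal. At the outer site the groups overlapped, with medians of 256 CPM in VEH, 236 CPM in PB and 241 CPM in LEV, and at the middle site with medians of 60.3, 60.3 and 67.4 CPM. The log2 fold change between PB and VEH was -0.27 (SE 0.04) for the inner site, -0.15 (SE 0.07) for the outer and -0.10 (SE 0.17) for the middle one, and whether these 3 values differ from each other was not tested.

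Among single Ndrg4 transcripts, NM_031967 of the inner site was furthest apart between PB and VEH. Its levels were 245 to 336 CPM in VEH (median 286), 136 to 288 CPM in PB (median 217) and 248 to 368 CPM in LEV (median 288), so that 12 of 14 PB animals were below every VEH animal and 12 of 14 below every LEV animal. The log2 fold change was -0.46 (SE 0.07). NM_001271095, the most abundant Ndrg4 transcript, from the same site, had 1452 to 1629 CPM in VEH (median 1531), 1039 to 1528 CPM in PB (median 1338) and 1321 to 1652 CPM in LEV (median 1572), with a log2 fold change of -0.24 (SE 0.04). At the outer site NM_001271091 had 29.3 to 51.6 CPM in VEH (median 37.7), 18.8 to 45.6 CPM in PB (median 30.7) and 31.1 to 45.7 CPM in LEV (median 36.5), a log2 fold change of -0.32 (SE 0.09), whereas NM_001271092 was at medians of 220, 202 and 203 CPM and at -0.12 (SE 0.07). The middle-site transcripts NM_001271093 (median 9.10 CPM in VEH and 8.14 in PB, -0.29, SE 0.17) and NM_001271094 (51.2 and 52.9 CPM, -0.07, SE 0.17) had the largest errors of the Ndrg4 transcripts, and NM_001271093 was the rarest of them.

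**Figure D2:**
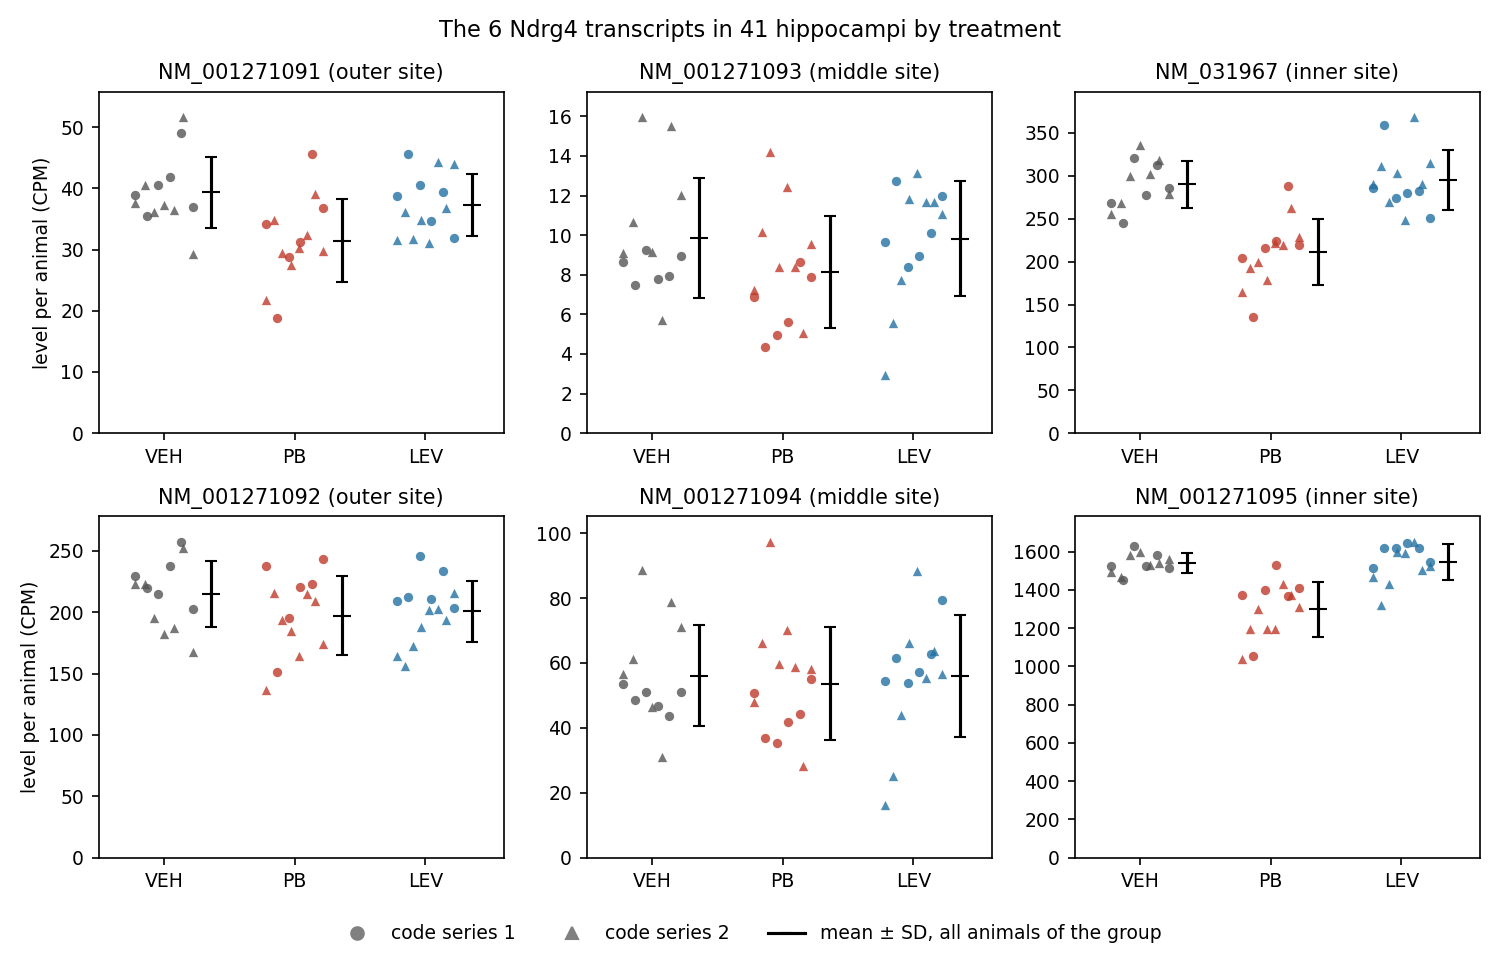
Level of each Ndrg4 transcript (CPM, axes from 0) per animal by treatment, for 41 hippocampi. Points are animals, circles code series 1 and triangles code series 2, and bars give the mean ± SD. The PB animals are displaced downwards most clearly at the inner site, where 12 of 14 (NM_031967) and 13 of 14 (NM_001271095) lie below every VEH animal. The ranges of PB and VEH animals overlap for every transcript.

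The transcript values of Ndrg4 were not independent of one another. Reads that fit several transcripts had been divided among them by an expectation-maximization algorithm, and 97.2% of the Ndrg4 values were not whole numbers. At each start site the less abundant transcript took almost the same share of its site. In VEH, NM_031967 took 15.8 ± 0.918% (SD, n = 13) of the inner site, NM_001271093 14.9 ± 0.962% of the middle site and NM_001271091 15.5 ± 0.945% of the outer site. After PB the 3 shares were 13.9 ± 1.55%, 13.1 ± 1.54% and 13.7 ± 1.55% (n = 14), and after LEV 16.0 ± 1.70%, 15.2 ± 1.66% and 15.7 ± 1.68% (n = 14). Within an animal they were never more than 1.20 percentage points apart, and across the 41 animals, each value from the same library and the same division of reads, Pearson's r between sites was 0.994 to 0.999. The larger differences of NM_031967 and NM_001271091 therefore hold 1 shared quantity, the share of the less abundant form, which was below the VEH mean of the code series in 12 or 13 of 14 PB animals depending on the site, and in 7 of 14 LEV animals at each site.

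**Figure D3:**
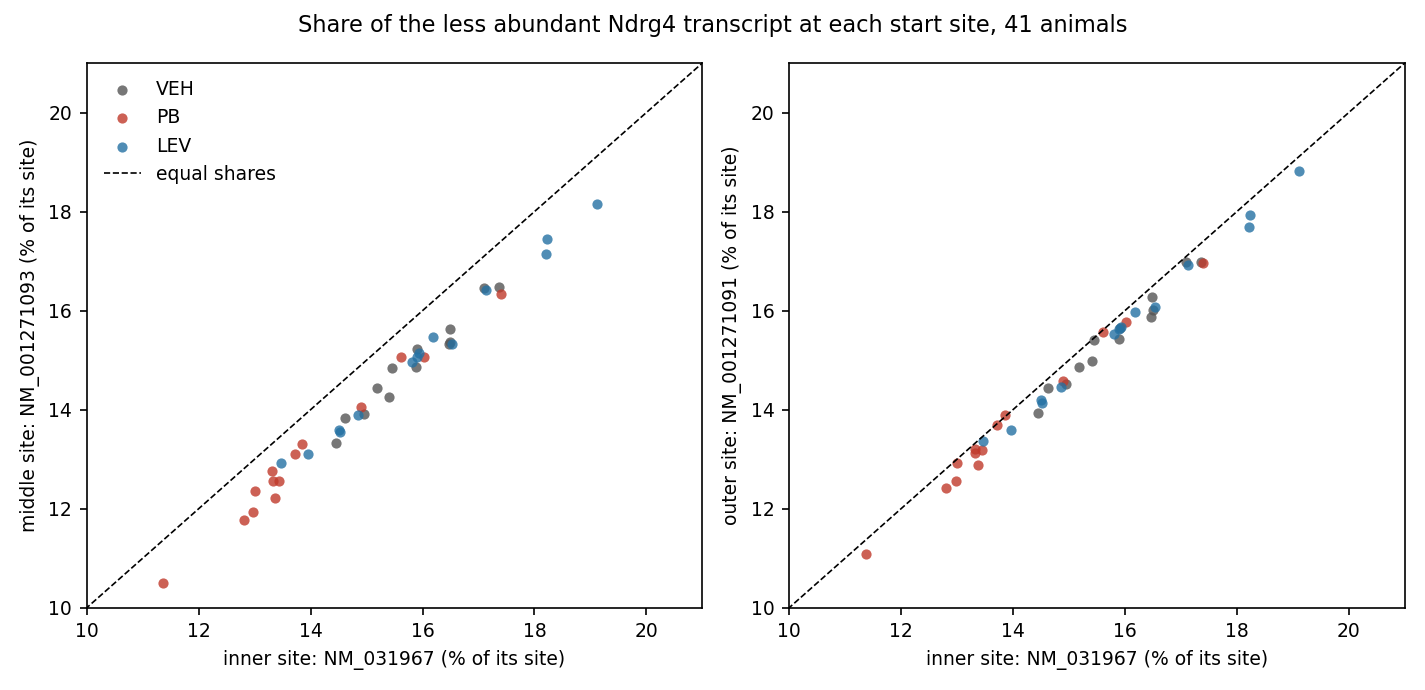
Share of its start site taken by the less abundant Ndrg4 transcript, in percent, at the inner site (horizontal axis) against the middle site (left) and the outer site (right). Each point is 1 of 41 animals, coloured by treatment, and the dashed line marks equal shares. The points lie close to the dashed line, most of them just below it, with r of 0.994 and 0.996, and most PB animals lie towards the lower left.

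The estimate of Ndrg2 was lower and that of Ndrg1 higher after PB, with a single animal far from the others. The Ndrg2 sum was 388 to 514 CPM in VEH (median 453), 347 to 554 CPM in PB (median 391) and 385 to 489 CPM in LEV (median 456). PB animal 2, at 554 CPM, was above every VEH animal, while 13 of 14 PB animals were below the VEH mean of their code series. The log2 fold change between PB and VEH was -0.15 (SE 0.05), and -0.20 without PB animal 2. Of its 4 transcripts, NM_001270864, the most abundant, had a median of 247 CPM in VEH, 220 CPM in PB and 246 CPM in LEV and a log2 fold change of -0.21 (SE 0.06) between PB and VEH. The other 3 were at -0.44 (SE 0.19, NM_001270862), -0.07 (SE 0.10, NM_133583) and 0.06 (SE 0.10, NM_001270863). For NM_133583 and NM_001270863 the log2 ratio of the PB to the VEH mean differed in sign between the code series. NM_133583 was at 0.18 in series 1 and -0.28 in series 2, and NM_001270863 at -0.18 and 0.25. As for Ndrg4, 99.4% of the Ndrg2 values were not whole, and single Ndrg2 transcripts are uncertain for that reason.

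For Ndrg1, levels were 81.3 to 111 CPM in VEH (median 99.2), 70.5 to 145 CPM in PB (median 105) and 80.8 to 114 CPM in LEV (median 98.2). In PB, animal 2 was the highest and animal 5 the lowest of all 41 animals, and 11 of 14 PB animals were above the VEH mean of their code series. The log2 fold change between PB and VEH was 0.14 (SE 0.06), and 0.09 without PB animal 2. Ndrg3 ranged from 383 to 496 CPM in VEH (median 423), from 327 to 425 CPM in PB (median 402) and from 381 to 487 CPM in LEV (median 417), with PB animal 2 again at one extreme, here the lowest. The log2 fold change between PB and VEH was -0.11 (SE 0.04), and the log2 ratio of the group means in code series 1 was -0.02.

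Between PB and VEH, 2 of the 12 transcripts, NM_031967 and NM_001271091 of Ndrg4, passed both limits (adjusted p under 0.05, and a log2 fold change of 0.32 or more up or down), beside 0.605% of all 13062 transcripts. Because this contrast chose the family, nothing is read from that count. NM_001271091, at -0.3223, stood just inside the fold limit of 0.3219, and NM_001271095, at -0.24, was the nearest outside it among the transcripts past the limit on p. With counts summed per gene none of the 4 genes passed both limits, beside 0.674% of 12165 genes. Ndrg1, Ndrg2 and Ndrg3 also missed the limit on p, which 6.03% of all genes passed.

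No difference between LEV and VEH was detected for any member at these numbers of animals. None of the 12 transcripts passed both limits between LEV and VEH, beside 0% of all transcripts, and none had an unadjusted p under 0.05, against 763 of 13062 transcripts that did (edgeR, quasi-likelihood). DESeq2 passed 0 of the 12 and 5 of all. Their log2 fold changes lay between -0.17 (NM_001270862, SE 0.19) and 0.16 (NM_001270863, SE 0.10), with adjusted p from 0.884 to 0.998 (edgeR, Benjamini-Hochberg). For gene sums the largest of the 4 differences was that of Ndrg1, -0.03 (SE 0.06), and Ndrg4 differed by 0.0003 (SE 0.04). The shares of the 6 transcripts in the Ndrg4 sum did not pass either. The largest shift was that of NM_001271092, from 10.0% in VEH to 9.34% in LEV (two-sided permutation test within code series, 100000 resamples, p = 0.0604, adjusted over the 6 transcripts 0.363).

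**Figure D4:**
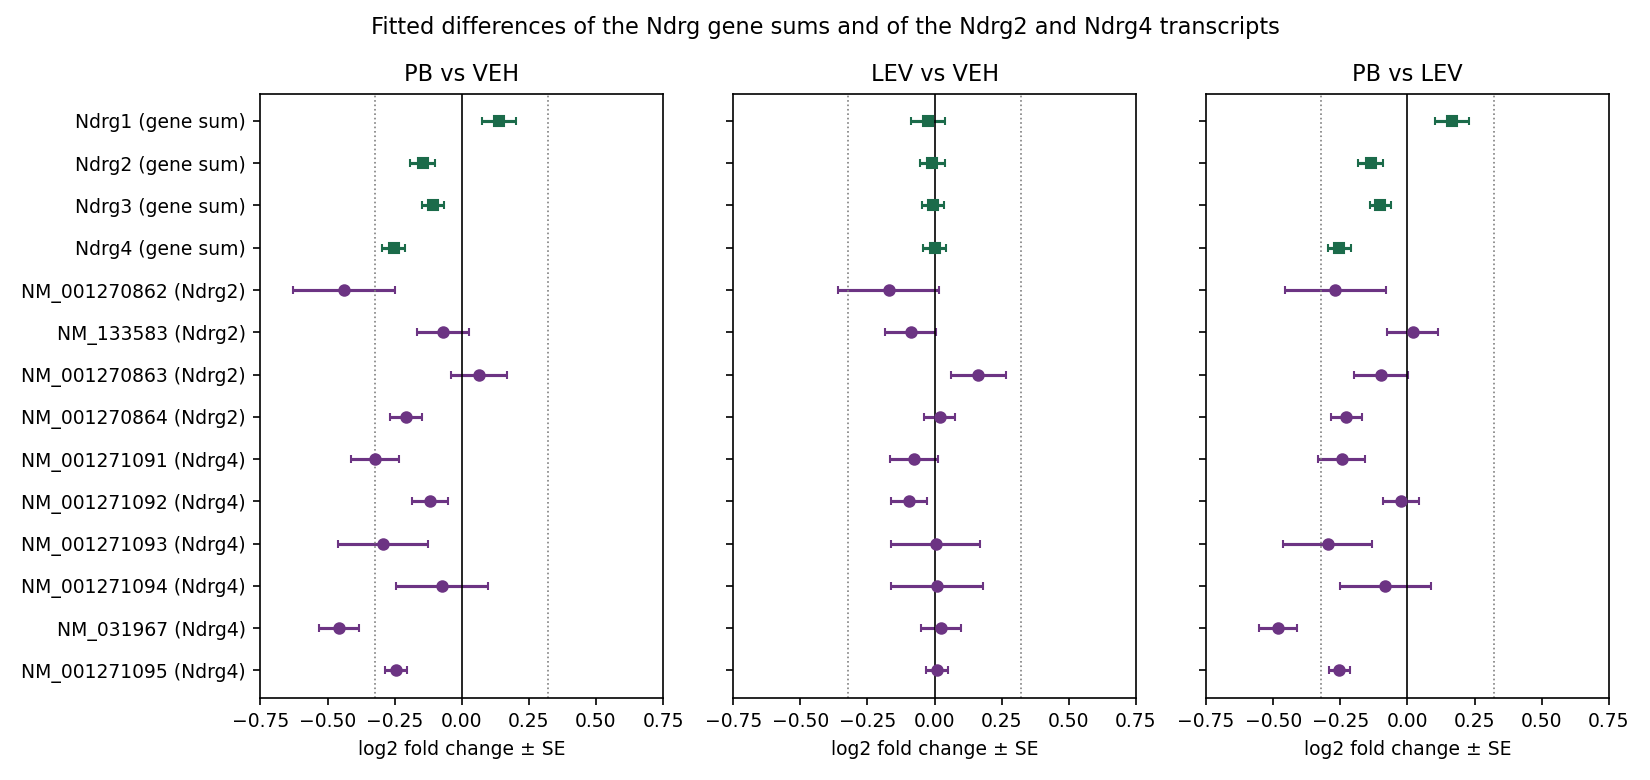
Fitted log2 fold change ± SE of the 4 gene sums (squares) and of the Ndrg2 and Ndrg4 transcripts (circles) for PB against VEH, LEV against VEH and PB against LEV. Dotted lines mark the fold limit, 0.32 in either direction. NM_031967 of Ndrg4 lies outside the lines in both PB panels, at -0.46 and -0.48, NM_001270862 of Ndrg2 lies outside against VEH at -0.44 with an SE of 0.19, and the LEV values lie between -0.17 and 0.16.

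Compared directly with LEV, the estimate of 1 Ndrg2 transcript was lower in PB animals, a value that depends on the division of reads among transcripts. NM_001270864 had 175 to 279 CPM in PB (median 220) and 217 to 309 CPM in LEV (median 246), and 13 of 14 PB animals were below the LEV mean of their code series (by -0.21 on the log2 scale in series 1 and -0.24 in series 2 for the group means). Its log2 fold change was -0.23 (SE 0.06, Benjamini-Hochberg adjusted p = 0.0169 in edgeR), under the fold limit, and 4.45% of all transcripts had an adjusted p under 0.05 in this comparison. The adjusted p stayed between 0.00175 and 0.0308 when each animal was left out in turn. The sum over its start site, at 28313842, was also lower after PB (-0.21, SE 0.05, edgeR adjusted p = 0.00883, beside 4.57% of all start-site sums under 0.05), while the other Ndrg2 site was at -0.01 (SE 0.09, edgeR adjusted p = 0.971). At that other site the log2 ratio of the PB to the LEV mean differed in sign, 0.33 in code series 1 and -0.27 in series 2. At 28313842 it was -0.22 and -0.20. Whether the 2 sites differ was not tested. The whole Ndrg2 sum did not pass the limit on p (-0.14, SE 0.05, edgeR adjusted p = 0.0759, beside 4.79% of all genes that did). The log2 ratio of the group means for this sum was -0.02 in series 1 and -0.22 in series 2. Of 41 fits with 1 animal left out the Ndrg2 sum passed in only 1, without PB animal 2 (-0.19, edgeR adjusted p = 0.000582), and stayed under the fold limit. The highest adjusted p of these fits was 0.124. Ndrg1 was at 0.17 (SE 0.06, edgeR adjusted p = 0.121). It passed the limit on p in only 1 of the 41 fits, without PB animal 5 (0.21, edgeR adjusted p = 0.0193), also under the fold limit. Ndrg3 was at -0.10 (SE 0.04, edgeR adjusted p = 0.120) and did not pass with any animal left out.

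Ndrg4 is given without a test against LEV, since the same low PB animals had chosen it. Its sum was at -0.25 (SE 0.04) and lower than the LEV mean of the code series in 14 of 14 PB animals. NM_031967 was at -0.48 (SE 0.07), NM_001271095 at -0.25 (SE 0.04) and NM_001271091 at -0.25 (SE 0.09). In all, 1 of the 12 transcripts, NM_031967, passed both limits between PB and LEV, beside 0.582% of all transcripts, and nothing is read from that count for the same reason.

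The difference between drug and VEH was not shown to depend on the form of the sample code for any of the 12 transcripts. For PB, the interaction with code series had an adjusted p of at least 0.275 (edgeR), lowest for NM_133583 of Ndrg2. For the Ndrg4 sum, the log2 ratio of the PB to the VEH mean was -0.21 in code series 1 and -0.29 in code series 2. For LEV the lowest adjusted p was 0.137 (edgeR), for Ndrg3, whose log2 ratio of the LEV to the VEH mean was 0.12 in code series 1 and -0.11 in code series 2. None of the 12 passed both limits in either interaction, beside 0.0689% of all transcripts for PB and 0.72% for LEV. Code series 2 itself differed from series 1 for Ndrg4 NM_001271092, which was lower by -0.19 on the log2 scale (SE 0.05, edgeR adjusted p = 0.00678), as 30.2% of all transcripts did at an adjusted p under 0.05, and for the Ndrg2 sum, which was higher by 0.10 (SE 0.04, edgeR adjusted p = 0.0349), as did 30.9% of all genes. Both were under the fold limit, which none of the 12 transcripts reached together with the limit on p, beside 4.12% of all transcripts.

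Over the 41 animals, the gene whose level followed Ndrg4 most closely was Syn1, which encodes the synaptic vesicle protein synapsin (Pearson's r 0.962 of log2 CPM with code series removed), followed by Rab3a, a vesicle GTPase (0.947). With treatment means removed as well, r was 0.940 for Syn1 and 0.890 for Rab3a, and in VEH animals alone 0.846 and 0.684. Ndrg3 was most like Nptn (0.838), Gng3 (0.827) and Calm2 (0.823), which encode an adhesion molecule of synapses, a G-protein subunit and calmodulin. For these 3, r was 0.779 to 0.793 with treatment means removed and 0.799 to 0.922 in VEH animals alone. Ndrg1 was most like Trpv2 (0.815), Kiaa0895l (0.811) and Dpf1 (0.788), at 0.758 to 0.815 with treatment means removed and 0.70 to 0.81 in VEH animals alone. Ndrg2 was most like Itm2b (0.717), Agt (0.717) and Ahcyl1 (0.716), but other genes took the first 3 places with treatment means removed, where these were at 0.704, 0.646 and 0.591, and in VEH animals alone, where they were at 0.591, 0.628 and 0.254. Within the family r between Ndrg3 and Ndrg4 was 0.66, at 0.547 with treatment means removed and 0.259 in VEH animals alone. Between Ndrg1 and Ndrg4 it was -0.495, at -0.356 and -0.448, and between Ndrg2 and Ndrg4 0.103, at -0.483 and 0.155. These correlations describe libraries that share their treatment and their scaling, and carry no test.

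Markers of neurons, the cells that mainly express Ndrg4, were mostly lower after PB too. Of 14 neuronal genes, 13 had a lower estimate after PB than after VEH, 3 of them with an adjusted p under 0.05 (edgeR), beside 6.03% of all genes, and none past the fold limit, with a median log2 fold change of -0.12 beside 0.006 over all genes tested. Nefl, a neurofilament (-0.29, SE 0.06, edgeR adjusted p = 0.0053), Syp, the vesicle protein synaptophysin (-0.21, SE 0.04, edgeR adjusted p = 0.000499), and Eno2, neuronal enolase (-0.17, SE 0.04, edgeR adjusted p = 0.0128), were the 3, and Slc17a6, a vesicular glutamate transporter, was the highest of the list at 0.005. Nefl was further from 0 than the Ndrg4 sum (-0.25) and the others were nearer, and these differences were not tested. The summed neuronal level was 11248 to 12161 CPM in VEH, 8870 to 11467 CPM in PB and 10509 to 12190 CPM in LEV. Its part in the Ndrg4 values was not tested.

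Of 15 astrocyte genes, the cell type of Ndrg2, 13 were lower after PB, with a median of -0.08. Slc7a10, an amino acid exchanger (-0.36, SE 0.05, edgeR adjusted p = 3.54e-05), passed both limits downwards and Gfap, the filament of reactive astrocytes (0.33, SE 0.06, edgeR adjusted p = 0.0017), upwards, beside the 0.674% of all genes past both limits, and Slc1a3, Aldoc and Fgfr3 were lower with an adjusted p under 0.05 alone, beside the 6.03% of all genes. After LEV 13 of the 15 were also lower than VEH, with a median of -0.04 and none with an adjusted p under 0.05 (edgeR; 0.00822% of all genes), and between PB and LEV 7 were lower and 8 higher, with a median of 0.008. Among 13 genes of mature oligodendrocytes, which express Ndrg1, Opalin was lower past both limits (-1.39, SE 0.40, edgeR adjusted p = 0.0298), the highest was Ugt8 at 0.21, and the list's median was -0.08. After LEV 12 of the 13 were higher than VEH, with a median of 0.36 and none past the limit on p. Between PB and LEV all 13 were lower after PB, with a median of -0.26, and Opalin, Mobp and Mag passed both limits in edgeR, beside 0.608% of all genes. The summed astrocyte level spanned 6261 to 7622 CPM in VEH and 6072 to 7898 CPM in PB, and the summed oligodendrocyte level 851 to 2275 CPM and 515 to 2336 CPM. What these lists contributed to the Ndrg2 and Ndrg1 values was not tested.

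For genes known to act on the family, no difference in RNA level between PB and VEH was detected. Of 13 regulators tested, which included Sgk1, Mycn, Hif1a and Gsk3b, none had an adjusted p under 0.05 (edgeR), beside 6.03% of all genes. The highest was Arnt, the partner of HIF proteins, at 0.17. Among 13 hypoxia targets, a group to which Ndrg1 itself belongs, Vegfa rose by 0.15 (SE 0.03, edgeR adjusted p = 0.00286) and Pgk1 fell by 0.13 (SE 0.03, edgeR adjusted p = 0.0119). Both were under the fold limit, and 6.03% of all genes were past the limit on p. Ddit4 was the lowest at -0.16 and Adm the highest at 0.41, and neither passed. The median of the regulators was -0.004 and that of the hypoxia targets -0.06. What these genes contributed to the Ndrg values was not tested.

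Of the lists for other tissues and cells, 5 of 9 skeletal muscle genes were abundant enough to test. All 5 were lower past both limits after PB, beside 0.674% of all genes. They ran from -2.61 (Atp2a1, SE 0.43, edgeR adjusted p = 0.000275) through Myh4 (-2.19), Tnnt3 (-1.81) and Pvalb (-0.83), which is also a gene of interneurons, to -0.44 (Acta1). Levels were low, with a median of 0.43 CPM for Myh4 over all animals. Their list summed to 14.4 to 48.3 CPM in VEH, 10.1 to 23.7 CPM in PB and 14.3 to 61.4 CPM in LEV. The medians of this sum were 43.4 CPM in VEH and 15.6 CPM in PB in code series 1, and 19.1 and 13.5 CPM in code series 2. All 9 choroid plexus genes were higher after PB and after LEV without passing, with medians of 0.60 and 0.67 and Ttr highest at 0.88 (SE 1.02) for PB and Prlr lowest at 0.29, and their sum ran from 4.45 to 4639 CPM in VEH and from 8.54 to 7344 CPM in PB. None of 9 microglial genes (Aif1 -0.18 to Tmem119 0.07, median -0.04) or 7 endothelial genes (Cldn5 -0.16 to Pecam1 0.06, median -0.05) passed. What these cells contributed to the Ndrg values was not tested.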

How the data were processed

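Estimated counts per transcript were deposited by the authors for 42 hippocampal libraries, made by mapping paired reads to the rat rn6 genome with STAR 2.7.3a in Partek Flow and dividing reads among annotated transcripts by an expectation-maximization algorithm. The deposited table of the authors' own comparisons, which holds DESeq2 fold changes and p-values, was not used. Estimated counts were rounded, filtered (filterByExpr), scaled (TMM) and fitted with edgeR 4.0.16 (limma 3.58.1, R 4.3.3) by quasi-likelihood tests in 41 animals, with group and code series as terms, per transcript, per gene sum and per start-site sum, with Benjamini-Hochberg adjustment over all features. Depth was 9499494 to 14488125 estimated reads per animal. Levels are CPM after TMM scaling. DESeq2 1.42.0 and other settings were alternatives. Scripts were tested on simulated data. The family, gene lists and tests were chosen with earlier results of these data known. Named genes were all family transcripts, the 3 genes most correlated with each gene sum (prior count 2), and from each list the highest, the lowest and those past the limits, of which some are not reported here. Sgk1, Mycn, Hif1a, Gsk3b and the list genes past the limit on p alone were named after their values were seen. Animals are separate pups. By the study's methods each litter gave an animal to every treatment, so groups share litters, but which animals are littermates is not given in the sources used here.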

Additional observations from a re-analysis of the deposited data

Results flagged for a closer look

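One value outside the comparisons stood out. The VEH animal labelled as excluded had an Ndrg2 sum of 579 CPM, above the range of 388 to 514 CPM in the 13 VEH animals. In the same library Ndrg4 (1549 CPM), Ndrg3 (322 CPM) and Ndrg1 (72.2 CPM) were each below the lowest VEH animal, so all 4 gene sums lay outside the VEH range. The study's methods left this library out for its sequencing coverage, and whether that bears on these values was not tested.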

How the results depend on the processing

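Between PB and VEH, 2 Ndrg transcripts passed both limits. The number was 1 with DESeq2, with DESeq2 size factors in edgeR, with a batch-by-treatment term, in code series 2 alone, with all 14 VEH animals and with only the 2 groups compared, 0 in code series 1 alone and with start-site sums (chosen after seeing the data), and 4 without a fold limit. NM_001271091 was the transcript lost, at -0.30 to -0.33 on the log2 scale in these settings, and in 18 of the 41 fits with 1 animal left out, where the number was 1 to 2. In 3 of those fits, without VEH animal 5 (-0.30), VEH animal 13 (-0.28) or PB animal 7 (-0.29), NM_001271091 also missed the limit on p. NM_031967 was lost in code series 1 alone (-0.41). Between PB and LEV, 1 transcript passed, against 2 in code series 1 alone (NM_001271093 and NM_001271094), 0 with start-site sums, 3 without a fold limit and 1 with any animal left out. For gene sums, none passed in either comparison, and 1 did without a fold limit. Between LEV and VEH and in the interactions no Ndrg transcript passed under any alternative run, and between the code series none did except without a fold limit, where 1 passed (NM_001271092). The correlation of Ndrg4 with Syn1 was 0.962, and 0.846 in VEH animals alone. Pairing by equal animal numbers was not visible in the levels. Over 40 pairs r of their deviations was -0.332 to 0.329. The median was 0, beside -0.005 for other numbers, and 7 of 41 animals correlated best with their own number. These values cannot show whether animals with equal numbers were littermates. A replicate block on the number left 1 Ndrg transcript past both limits between PB and VEH and 1 between PB and LEV. Over all transcripts the main counts were 79 between PB and VEH (17 in code series 1 alone, 168 in code series 2 alone), 0 between LEV and VEH (up to 170, in code series 1 alone), 76 between PB and LEV (24 in code series 1 alone, 34 with all 14 VEH animals) and 538 between code series (307 in VEH animals alone). Over gene sums they were 82 (21 and 175), 0 (up to 157) and 74 (20 in code series 1 alone, 32 with all 14 VEH animals, 48 with a mean of at least 50 counts). Where a cause is not evident from the smaller number of animals or features, the cause was not tested. Of 720 single fold changes under other settings, 700 stayed on their side of the limits within the spread between animals, and 47 changed sign, none of them past the limits. Levels per transcript length were not run because lengths were not at hand here.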
